A study of Mus musculus with 211 samples.

Results

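Specific granule and antimicrobial genes were examined in single cells sorted as GFP-positive from the adult mouse cochlea. The 7 genes were *Ngp*, *Camp*, *Ltf*, *Lcn2*, *Chil3*, *Lyz2* and *Fcnb*, of 48709 genes in the deposited table. They were chosen from measured values, their reads in these cells, so their levels and their joint detection across cells are given as a description without a test. The study used Lfng-EGFP mice on the CD1 strain, which carry a BAC transgene that places EGFP under *Lfng* regulatory sequence, and all cells were labelled as adult cochlear supporting cells (SCs). The 2 groups were labelled by age, with 8 captures at postnatal day 60 (P60), which held 48.3% of the 211 cells, and 4 captures at postnatal day 120 (P120), which held 51.7%. Each capture on the Fluidigm C1 pooled several cochleae, whose number is given differently in the labels and in the study's methods, and the capture was taken as the replicate. Neither group received a treatment or carried another allele according to the labels.

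Neutrophils are formed in the bone marrow from granulocyte precursors, which pack antimicrobial proteins into granules in successive waves. Primary granules, which hold myeloperoxidase (*Mpo*) and neutrophil elastase (*Elane*), are made first, and specific granules, which hold lactoferrin and cathelicidin, are made later, at the myelocyte stage. The transcripts of granule proteins are mostly lost as the cells mature, while *Il1b*, which encodes the cytokine interleukin-1 beta, is transcribed in mature and activated neutrophils.

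Among the members, *Ngp* encodes neutrophilic granule protein, *Camp* the cathelicidin precursor of an antimicrobial peptide, *Ltf* the iron-binding protein lactoferrin and *Lcn2* the siderophore-binding lipocalin-2. *Chil3* encodes a chitinase-like protein, *Lyz2* the lysozyme of myeloid cells, including macrophages, and *Fcnb* ficolin B, a lectin that recognizes microbial sugars. *Camp*, *Ngp* and *Ltf* lay within 1195 kb of chromosome 9 in GRCm38, with *Ngp* 570 kb from *Camp* and 596 kb from *Ltf*. *Fcnb* and *Lcn2* lay on chromosome 2, *Chil3* on chromosome 3 and *Lyz2* on chromosome 10. The interval on chromosome 9 held 31 protein-coding genes. Of the other genes in it, 6 were detected widely enough for a correlation, and their median Spearman rho with *Ngp* was 0.10, against 0.11 over all genes measured.

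Because the members were read together in many cells, the sequences before their start sites are shown for 4 of them, taken from RefSeq (GRCm38.p6) for all 7 genes and printed 5′ to 3′ on the strand of the gene. Each stretch ends before the first base of the gene in GENCODE, and capitals mark the C/EBP-type motif TTGCNNAA on either strand. C/EBP factors, including the product of *Cebpe*, are known regulators of specific granule genes.
*Ngp*, chr9:110419558-110419746, plus strand: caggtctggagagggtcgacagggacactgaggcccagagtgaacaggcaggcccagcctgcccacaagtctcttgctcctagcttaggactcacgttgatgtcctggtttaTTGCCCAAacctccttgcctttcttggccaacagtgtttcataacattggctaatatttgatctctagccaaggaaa
*Ltf*, chr9:111019042-111019270, plus strand: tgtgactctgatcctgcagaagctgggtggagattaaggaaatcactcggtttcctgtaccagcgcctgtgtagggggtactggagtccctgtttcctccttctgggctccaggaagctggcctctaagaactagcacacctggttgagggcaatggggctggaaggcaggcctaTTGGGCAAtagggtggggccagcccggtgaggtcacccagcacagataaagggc
*Fcnb*, chr2:28084886-28085128, minus strand: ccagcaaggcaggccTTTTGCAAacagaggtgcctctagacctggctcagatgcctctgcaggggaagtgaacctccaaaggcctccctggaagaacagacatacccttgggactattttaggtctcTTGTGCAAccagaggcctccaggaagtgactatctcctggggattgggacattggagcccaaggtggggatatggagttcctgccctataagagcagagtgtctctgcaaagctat
*Chil3*, chr3:106167565-106167814, minus strand: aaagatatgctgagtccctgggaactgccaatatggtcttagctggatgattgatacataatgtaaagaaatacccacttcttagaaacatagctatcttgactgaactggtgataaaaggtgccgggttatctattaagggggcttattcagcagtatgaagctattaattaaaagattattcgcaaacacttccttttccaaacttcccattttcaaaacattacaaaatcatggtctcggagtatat

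In the full window of 250 bases before the RefSeq start, the motif was found in 4 of the 7 members and in 9.56% of 32851 promoters of the same length. *Ngp* and *Fcnb* held 2 matches each, *Ltf* and *Lcn2* held 1 each, and none was found in these windows of *Camp*, *Chil3* and *Lyz2*. The second *Ngp* match began 11 bases before the start and lay in the part not printed. The letters GAGGAA, a PU.1-type motif, were found on either strand in 2 members, *Lcn2* and *Ltf*, against 23.3% of promoters, and overlapped no C/EBP-type match. A match is a description of the letters and was not tested as a binding site.

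The shallowest cell held 41 reads on genes and the deepest 5361476, the median being 736455. At least 50000 reads were reached by 77.7% of the 211 cells, 80 at P60 and 84 at P120. Values per cell are given for these deep cells, mostly as counts per 1000000 reads on genes (CPM). The label of SC was checked against marker lists, counting cells with at least 3 genes of a list at 10 or more reads. Of 211 cells, 14 met this for 15 SC genes and 170 for 10 leukocyte genes. Among the SC genes, *Lfng* reached 10 reads in 84 cells, *Cdkn1b* in 62 and *Jag1* in 23, and each of the other 12 in 8 cells or fewer. *Otog* (23749 reads) and *Tectb* (20584 reads), which encode tectorial membrane proteins, were concentrated in 5 and 8 such cells, while *Sox2*, *Fgfr3* and *Hes5* reached 10 reads in none. Captures 10c and 21c stood apart. P60 capture 10c had a median of 451 reads per cell, and in P60 capture 21c the members held 0.00636% of the reads in all. In addition, a library of P120 capture 32 (638128 reads) and a library of P60 capture 40 (175224 reads), sequenced in the same run, had profiles that correlated at r = 0.942, while the next most similar pair of libraries reached 0.720. They held the members in ratios of 2.84 to 3.99, against a ratio of 3.64 in total reads. The library in capture 32 supplied 10.9% of that capture's *Chil3* reads, its largest part of any member. Without both libraries, no member passed between the ages in edgeR's test below, and 7 genes did over all, against 10 with them.

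*Ngp* dominated the set. Together the 7 genes took 7.87% of all reads on genes, and *Ngp* alone took 4.08%, the rank of 3 among all genes by reads. *Camp* followed with 1.09% (rank 5), *Lyz2* with 0.909% (rank 6), *Chil3* with 0.715% (rank 9), *Lcn2* with 0.523% (rank 15) and *Ltf* with 0.478% (rank 16). *Fcnb* was far lower at 0.0707%. Scaled to exon length, the levels were 33417 CPM per kilobase for *Ngp*, 14440 for *Camp*, 6907 for *Lyz2*, 4381 for *Chil3*, 1995 for *Lcn2*, 1386 for *Ltf* and 528 for *Fcnb*. The order by length-scaled level was thus the same as the order by share of reads. The shares varied widely among captures, with a mean over 12 captures of 2.67% ± 2.62 (SD) for *Ngp*, 0.758% ± 0.694 for *Camp* and 0.728% ± 0.545 for *Lyz2*. *Chil3* had 0.454% ± 0.452, *Lcn2* 0.354% ± 0.305 and *Ltf* 0.306% ± 0.332. Within the same capture, *Chil3* lay above *Ltf* in 10 of 12 captures, with a mean difference of 0.149% ± 0.153 (SD) of the reads, above *Lcn2* in 8 of 12 (0.1003% ± 0.218), and *Lcn2* lay above *Ltf* in 8 of 12 (0.0485% ± 0.146). *Camp* lay above *Lyz2* in 8 of 12 captures (0.0298% ± 0.726). Each of these differences was smaller than its SD.

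Reads that could belong to related genes were few. *Lyz1*, the close copy of *Lyz2*, had 128 reads over all cells against 2001039 for *Lyz2*. *Chil4* had 66 reads against 1574045 for *Chil3*, *Fcna* had 461 against 155707 for *Fcnb*, and *Trf*, which encodes transferrin, had 2778 against 1052845 for *Ltf*.

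A small number of cells held most of the reads. For *Ngp*, 50% of its reads lay in 12 cells and 90% in 31 of 211 cells. The same share of 50% lay in 12 cells for *Camp* and for *Lcn2*, 10 for *Chil3*, 9 for *Ltf* and 5 for *Fcnb*. *Lyz2* was spread most widely, over 17 cells for 50% and 52 cells for 90%. The highest share in any cell of at least 50000 reads was 18.2% of the reads for *Ngp*, 5.64% for *Camp*, 5.12% for *Chil3* and 1.03% for *Fcnb*.

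Counts of cells with a member depended on the level asked for. At 10 or more reads, *Ngp* was found in 87.7% of the 211 cells (exact 95% interval 82.5 to 91.8), *Lyz2* in 83.4%, *Lcn2* in 64.9% of cells, *Camp* in 60.7%, *Chil3* in 48.3%, *Ltf* in 45.5% and *Fcnb* in 22.7% (48 cells, 17.3 to 29). At 1 or more reads *Ngp* was found in all 211 cells. Every cell held at least 3 *Ngp* reads. The lowest count in a capture and run was between 3 and 337 *Ngp* reads. By run, this count was 3 to 10 in S047, 19 to 337 in the first run of S059 and 3 to 77 in the second. Within the first run of S059, it mostly rose with the *Ngp* total of the capture. It was 19 reads in P120 capture 36 (30169 *Ngp* reads), 65 in P120 capture 32 (637540) and 68 in P60 capture 31 (1547344). P120 captures 28 (20 reads at the lowest total) and 38 (40 reads at 1260923) departed from this order. Within the second run, P60 capture 31 held 46 reads at a total of 477300, more than P120 capture 28 at a higher total. Over all runs, the lowest count did not follow the total throughout. It was 3 reads in P60 capture 21c (58 *Ngp* reads in all) and also in the second run of P120 capture 32 (272065 *Ngp* reads), 9 in the second run of P120 capture 28 (938653 *Ngp* reads) and 337 in the first run of P60 capture 40 (2247484 *Ngp* reads). In capture 21c, 2 cells with SC genes and fewer than 10 *Ptprc* reads held 3 and 9 *Ngp* reads at 644039 and 2125161 reads, or 4.23 to 4.66 CPM. Other members had a lowest count above 10 reads in places too. In the first run of P60 capture 40 every cell held at least 79 *Camp*, 14 *Ltf*, 30 *Lcn2*, 28 *Chil3* and 44 *Lyz2* reads. *Camp* reached 10 reads in 100% of the cells of captures 31 and 40 and in 0% in captures 20c and 21c. The source of these lowest counts was not tested. Since every cell held *Ngp* reads, a level of 1000 CPM, 0.1% of a cell's reads, was used as high and was chosen after the values were seen.

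**Figure D1:**
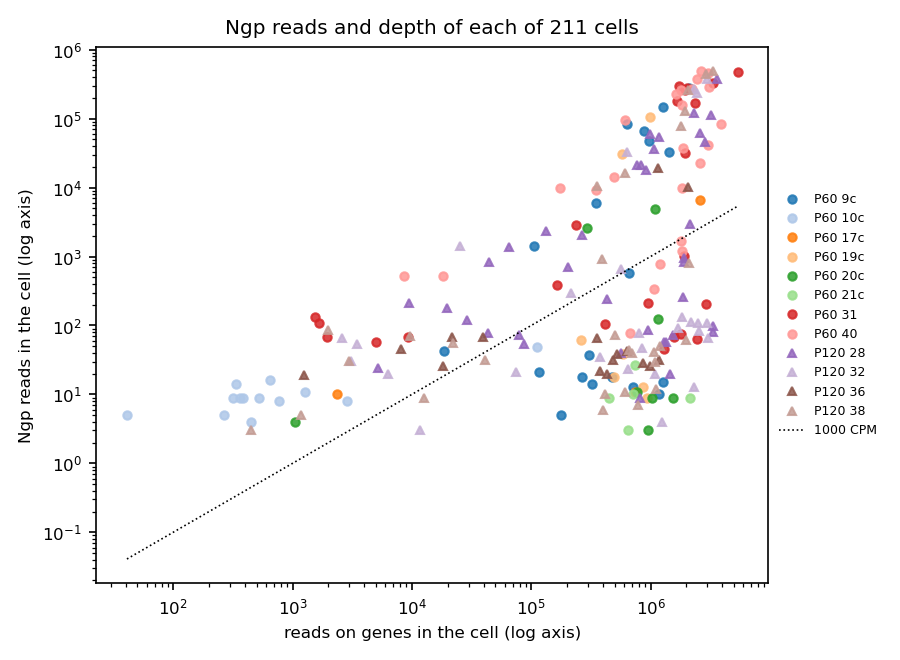
*Ngp* reads (vertical, log axis) against all reads on genes (horizontal, log axis) in each of the 211 cells, with circles for P60 captures, triangles for P120 captures and a dotted line at 1000 CPM. Every cell held at least 3 *Ngp* reads, and 72 of the cells with 50000 or more reads lay at or above the line.

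At 1000 CPM or more, *Lyz2* was high in 95 deep cells (57.9%, exact 95% interval 50 to 65.6), *Lcn2* in 75 (45.7%), *Ngp* in 72 (43.9%), *Camp* in 59 (36%), *Ltf* and *Chil3* in 48 each (29.3%) and *Fcnb* in 19 (11.6%, 7.12 to 17.5). These cells supplied 99.8% of the *Ngp* reads and at least 94.8% of the reads of every member. For *Ngp* and *Camp* most cells lay in a low or a high range. *Ngp* was under 100 CPM in 68 cells, between 100 and 1000 CPM in 24 cells, between 1000 and 10000 CPM in 13 cells and over 10000 CPM in 59 cells, with a median of 438 CPM. *Camp* was under 100 CPM in 95 cells, between 100 and 1000 CPM in 10 cells, between 1000 and 10000 CPM in 16 cells and over 10000 CPM in 43 cells.

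The members were high in the same cells to a large extent. Among the deep cells, 48 had no member high, 30 had all but *Fcnb* high and 8 had all 7 high. A further 22 cells had *Lyz2* alone high, 8 had *Lcn2* and *Lyz2* high, 8 had *Ngp*, *Lcn2* and *Lyz2* high and 7 had *Lcn2* alone high. *Ngp* was high in 47 of the 48 cells with high *Ltf*, in 47 of the 48 with high *Chil3* and in 56 of the 59 with high *Camp*. By contrast, *Ngp* was high in 64 of the 95 cells with high *Lyz2*. *Fcnb*, high in the smallest number of cells, was not fully contained in any other member. Of its 19 high cells, *Ngp* and *Chil3* were high in 15 each, *Camp* and *Lyz2* in 12 each, *Lcn2* in 10 and *Ltf* in 8. *Fcnb* alone was high in 2 cells.

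Across the deep cells, Spearman's rho between members had a median of 0.61 over the 21 pairs and ranged from 0.10 for *Lyz2* and *Fcnb* to 0.89 for *Ngp* and *Camp*. These values describe cells that share captures and depth. *Camp* and *Chil3* reached 0.88, *Camp* and *Ltf* 0.86, *Ngp* and *Chil3* 0.83 and *Ngp* and *Ltf* 0.80. *Lcn2* was closest to *Ngp* (0.79) and *Ltf* (0.74), *Lyz2* was closest to *Lcn2* (0.68), and *Fcnb* was closest to *Chil3* (0.59) and *Camp* (0.53). The median over the pairs was 0.67 in P60 cells and 0.55 in P120 cells, and 0.60 without the pair of libraries with a shared profile. Within the 7 captures with at least 10 such cells it ranged from 0.10 in P120 capture 36 to 0.81 in P60 capture 31. Capture 36 had 2 cells with high *Ngp* among its 11 cells.

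**Figure D2:**
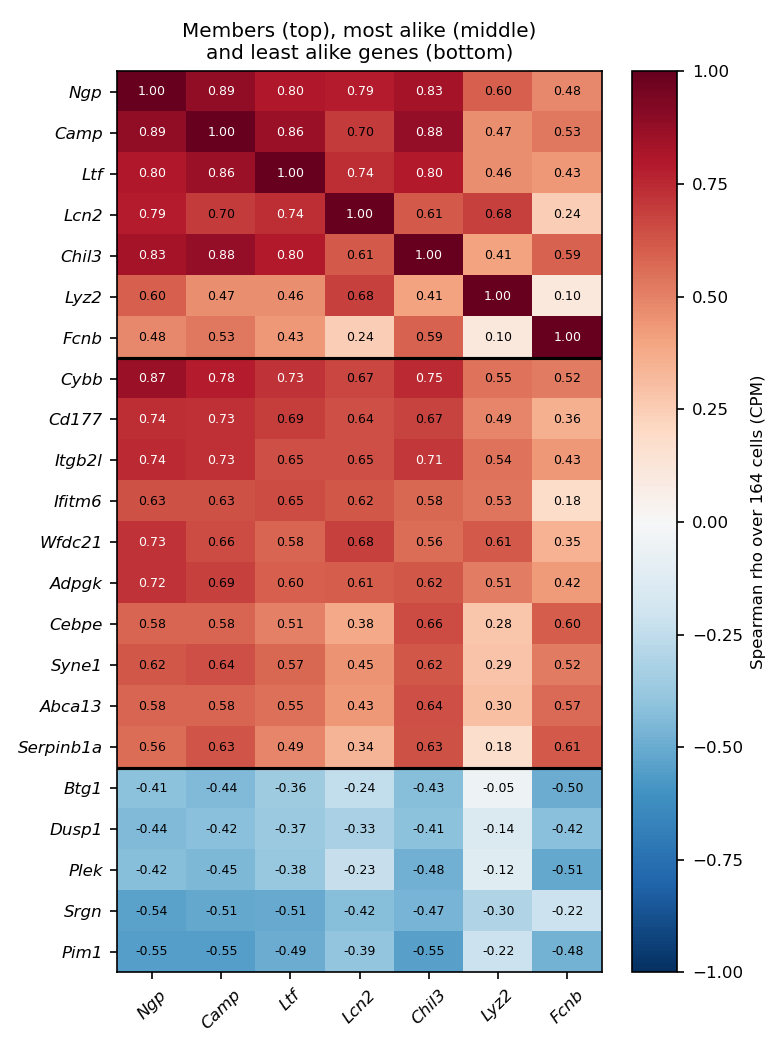
Spearman's rho over the 80 P60 and 84 P120 deep cells between each member (columns) and the 7 members, the 10 genes most like them and the 5 least like them (rows), with the value in each square and color from -1 (blue) to 1 (red). *Ngp*, *Camp*, *Ltf* and *Chil3* form the block of 0.796 and above, while *Lyz2* and *Fcnb* correlated with each other at 0.10.

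Other genes were ranked by the median of their rho with the 7 members. Of 4601 genes detected at 10 or more reads in at least 10% of the deep cells, 22 (0.478%) reached a median rho of 0.5, and the median over all of them was 0.11. *Cybb*, which encodes a subunit of the phagocyte NADPH oxidase carried by specific granules, led with 0.73 and reached 0.87 with *Ngp*. It was followed by *Cd177* (0.67), a neutrophil surface glycoprotein, *Itgb2l* (0.65), an integrin beta subunit, *Ifitm6* (0.62), *Wfdc21* (0.61), *Adpgk* (0.61), *Cebpe* (0.58), *Syne1* (0.57), *Abca13* (0.57) and *Serpinb1a* (0.56), an inhibitor of neutrophil proteases. At the other end stood *Pim1* (-0.49), *Srgn* (-0.47), *Plek* (-0.42), *Dusp1* (-0.41) and *Btg1* (-0.41). *Cebpe* correlated best with *Chil3* (0.66) and *Fcnb* (0.60) and least with *Lyz2* (0.28). After thinning to 50000 reads, 16 of the 4601 genes reached 0.5, and with ranks centred within captures 10 did. Of the 10 named genes, 8 and 7 still reached it. *Cebpe* was at 0.456 and 0.497, *Abca13* at 0.37 after thinning, and *Syne1* and *Serpinb1a* at 0.48 and 0.46 within captures.

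Lists of granulocyte genes differed in how they followed the members. Of 20 other specific granule genes, 18 were detected widely enough, 8 of them (44.4%) reached 0.5, and their median was 0.45. After thinning 6 reached 0.5, and within captures 5 did. By reads the first of these were *Anxa1*, which encodes annexin A1 (0.54), *Mmp8*, neutrophil collagenase (0.10), and *Cybb*. Of 12 primary granule and precursor genes none reached 0.5, with a median of 0.17. *Elane* stood at 0.25 and *Mpo* at 0.11, but both were higher with *Fcnb* (0.54 and 0.41) than with *Lyz2* (-0.09 and -0.16). The median for *Elane* was 0.11 after thinning and 0.07 within captures, and that for *Mpo* turned to -0.01 and -0.06.

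Genes of late neutrophils went the other way. None of 18 reached 0.5, 14 were below 0, against 815 of all 4601 genes, and their median was -0.15. *Retnlg* stood at -0.02 and *Il1b* at -0.39, the lowest of the list. After thinning 14 were below 0 (median -0.16), and within captures 12 were (median -0.09). The members differed in this. With *Lyz2* alone, all but *Il1b* (-0.15) and *Csf3r* (-0.06) were above 0, up to 0.40 for *Retnlg* and 0.50 for *Fpr2*. The calprotectin genes *S100a8* and *S100a9*, which encode an abundant cytosolic protein of neutrophils, stood at 0.49 and 0.37, and both followed *Lyz2* (0.65 and 0.67) more closely than *Fcnb* (0.14 and -0.01). Among the transcription factors of granulopoiesis, 1 of the 8 measured, *Cebpe*, reached 0.5, and none did after thinning or within captures. The factor with the most reads, *Runx1*, stood at 0.03 and *Cebpb* at -0.25.

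Split by *Ngp* as a description, the 72 cells with high *Ngp* held *Cybb* at 3220 CPM in their summed reads and the other 92 cells at 136.5 CPM. *Cd177* was at 1278 and 30.2 CPM, and *Itgb2l* at 354 and 1.6 CPM. *Elane* was at 2938 CPM in the cells with high *Ngp* and 4350 CPM in the others, and *Il1b* at 648 and 7141 CPM. *Prss34* and *Mcpt8*, proteases of basophils and mast cells, were at 11.8 and 10.6 CPM in the cells with high *Ngp* and at 11874 and 5391 CPM in the others. In 21 cells with both protease genes at 10 or more reads, median *Ngp* was 47.6 CPM and 4 cells were high. *Mki67* or *Top2a*, both expressed in dividing cells, reached 10 reads in 37 of the 72 cells (51.4%) and 24 of the 92 cells (26.1%), with median depths of 1685070 and 938044 reads. The median normalized GFP intensity, a score, was 319 in the cells with high *Ngp* and 350.5 in the others. It was higher in the cells with high *Ngp* in 4 of the 6 captures with at least 3 cells of each kind. *Lfng* reached 10 reads in 38 and 46 of these cells.

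Cells were next divided by 10 or more reads of *Elane* or *Mpo*, the primary granule genes, and of *Il1b*. There were 67 cells with *Elane* or *Mpo* and 116 with *Il1b*. Of these, 43 had *Elane* or *Mpo* only, 92 had *Il1b* only and 24 had both, while 52 had neither. In summed reads, *Prss34* was at 9654 CPM with *Elane* or *Mpo* only, 17117 CPM with both, 3.78 CPM with *Il1b* only and 2.09 CPM with neither. The classes with *Elane* or *Mpo* thus also held reads of a basophil and mast cell protease, whose part in the class values was not tested. The classes were unevenly spread over captures, with 26 cells with *Elane* or *Mpo* in P120 capture 28, 13 in P60 capture 40 and none in P60 captures 10c, 19c, 20c and 21c and P120 capture 36. Median depth was 1700682 reads in cells with *Elane* or *Mpo* only, 653435 with *Il1b* only and 122356 with neither. The part of this uneven depth in the class values was not tested. Because the classes belong to the way the genes are described, their differences carry no test.

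*Ngp* was high in every class, but in different shares of cells. It was high in 21 of 38 cells (55.3%) with *Elane* or *Mpo* only, 20 of 78 (25.6%) with *Il1b* only, 9 of 20 (45%) with both and 22 of 28 (78.6%) with neither. The median level was 6570 CPM, 66.9 CPM, 318 CPM and 26648 CPM in the same order. Among the high cells alone, the medians were 43558 CPM with *Elane* or *Mpo* only and 39433 CPM with *Il1b* only. *Camp* was high in 50%, 17.9%, 35% and 67.9% of cells in the same order of classes, *Ltf* in 36.8%, 14.1%, 35% and 57.1%, and *Chil3* in 50%, 11.5%, 35% and 46.4%. Cells without either class gene had the largest share of high cells for *Ngp*, *Camp* and *Ltf*, but not for *Chil3*.

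*Fcnb* and *Lyz2* stood at opposite ends. *Fcnb* was high in 13 of 38 cells (34.2%) with *Elane* or *Mpo* only, 2 of 78 (2.56%) with *Il1b* only, 3 of 20 (15%) with both and 1 of 28 (3.57%) with neither, and 91% of its reads lay in cells with *Elane* or *Mpo*. *Lyz2* was high in 44.7%, 56.4%, 60% and 78.6% of cells in the same order, and *Lcn2* in 39.5%, 37.2%, 50% and 75%. Among cells with high *Ngp*, median *Fcnb* was 492 CPM with *Elane* or *Mpo* only and 0 CPM with *Il1b* only, whereas median *Lyz2* was 3816 CPM and 12928 CPM. *Chil3* among these cells was at 12804 CPM with *Elane* or *Mpo* only and 278 CPM with *Il1b* only.

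**Figure D3:**
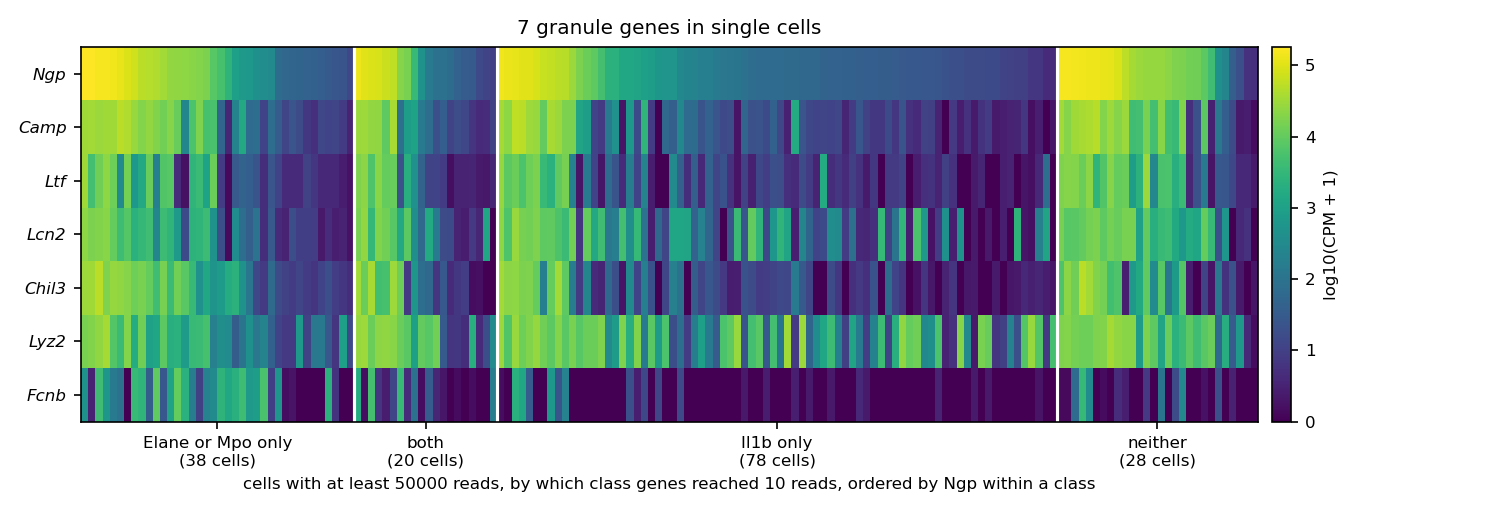
Level of the 7 members (rows, color as log10(CPM + 1)) in the deep cells (columns), grouped by which of *Elane* or *Mpo* and *Il1b* reached 10 reads and ordered by *Ngp* within a group. High *Ngp* is found in all 4 groups, in 22 of 28 cells with neither and 20 of 78 cells with *Il1b* only, and *Fcnb* is high mainly in the first group, in 13 of 38 cells.

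**Figure D4:**
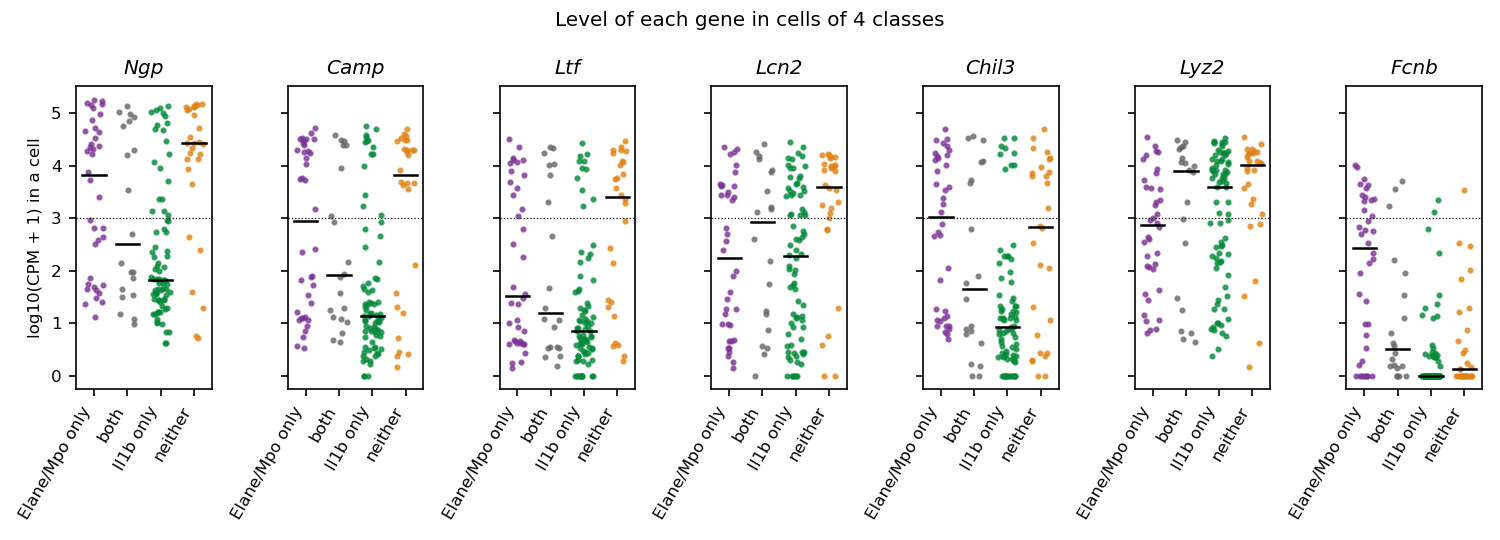
Log10(CPM + 1) of each member in single cells of the 4 groups, with a point per cell, a bar at the group median and a dotted line at 1000 CPM. Over the 4 groups, most cells lay in a low or a high range for *Ngp* and *Camp*. The median for *Ngp* was 6570 CPM in cells with *Elane* or *Mpo* only and 66.9 CPM in cells with *Il1b* only.

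Within captures the class difference was less even. In the 6 captures with at least 3 cells of both classes, *Fcnb* took 0.141%, 0.162%, 0.194%, 0.134%, 0.0012% and 0.491% of the reads of cells with *Elane* or *Mpo* in captures 9c, 31, 40, 28, 32 and 38. In cells with *Il1b* of the same captures it took 0.0100%, 0.0685%, 0.150%, 0.0049%, 0.0283% and 5.19e-05%. It was higher with *Elane* or *Mpo* in 5 of the 6 captures, with capture 32 the exception. *Lyz2* took 0.0676%, 1.89%, 1.07%, 0.339%, 0.299% and 0.113% with *Elane* or *Mpo* and 0.531%, 1.46%, 1.6%, 0.991%, 0.626% and 0.540% with *Il1b*, and was higher with *Il1b* in 5 of the 6, with capture 31 the exception. *Ngp* was higher with *Elane* or *Mpo* in 4 of 6, with a mean log2 ratio of *Il1b* cells over *Elane* or *Mpo* cells of -0.12 ± 0.97 (SD), so the class shares of *Ngp* did not differ beyond the spread of the captures. The same ratio was -0.20 ± 0.53 for *Camp*, -0.31 ± 0.90 for *Chil3*, 1.55 ± 1.94 for *Lcn2*, 1.80 ± 2.42 for *Ltf*, 1.34 ± 1.19 for *Lyz2* and -2.89 ± 5.37 for *Fcnb*. Only for *Lyz2* was the mean ratio larger than its SD. The 24 cells in both classes were counted on both sides of these ratios. Without them the mean ratio, over captures 9c, 28, 32 and 38, was 0.37 for *Ngp*, 0.10 for *Camp* and 0.16 for *Chil3*. These means lay above 0, against below 0 over the 6 captures, while *Fcnb*, at -4.09, was the only member that stayed below 0. Captures 31 and 40, where the *Ngp* ratio with all cells was -0.79 and -0.73, then lacked 3 cells of each class. With all cells, the *Ngp* ratio was -0.77, 1.31, -0.67 and 0.95 in captures 9c, 28, 32 and 38. The 2 sets of means thus differ in captures as well as in cells, and the part of each was not tested.

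Cells close to the class limit of 10 reads were rich in *Ngp*. In 21 cells with 5 to 9 reads of *Elane* or *Mpo*, whichever was higher, median *Ngp* was 28825 CPM, and in 21 cells with 10 to 19 reads it was 46445 CPM. For *Il1b*, 15 cells with 5 to 9 reads had a median of 21187 CPM and 10 cells with 10 to 19 reads one of 9915 CPM. At any depth, *Ngp* reached 1000 CPM in 16 and 18 of the cells near the *Elane* or *Mpo* limit, in the same order. Near the *Il1b* limit it did so in 15 and 8. The 21 cells with 10 to 19 reads were among the 67 with *Elane* or *Mpo*. Part of that class's cells with high *Ngp* thus lay close to its limit. With a class limit of 50 reads, the mean log2 ratio of *Camp* was 0.98 and that of *Ltf* 4.95, both higher in cells with *Il1b*, over 5 captures.

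The ages were compared to ask whether the members changed between P60 and P120. *Ngp* took between 0.00124% (capture 21c) and 7.07% (capture 40) of a capture's reads at P60, with a median of 1.56%. At P120 it took 2.12%, 2.72%, 0.333% and 5.42% in captures 28, 32, 36 and 38. The P60 range held all 4 P120 values. *Camp* ranged from 0.000214% to 1.54% at P60, with a median of 0.750%, and was 0.749%, 1.23%, 0.0189% and 1.04% at P120. *Ltf* ranged from 0.000103% to 0.849% at P60 (median 0.143%) and from 0.00863% to 0.568% at P120. *Lcn2* ranged from 0.248% to 0.410% at P120, within a P60 range of 9.03e-05% to 0.897%.

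*Chil3* ranged from 0.00015% to 1.2% at P60 and from 0.000833% to 0.624% at P120. *Lyz2* ranged from 0.0003% to 1.65% at P60 (median 0.680%) and from 0.525% to 1.04% at P120. *Fcnb* ranged from 1.47e-05% to 0.110% at P60 and from 1.10e-05% to 0.112% at P120. Low captures occurred at both ages. P120 capture 36, the lowest in 6 members at that age, had a *Lyz2* share of 1.04%, the highest at that age, as P60 capture 20c did at its age with 1.65%. In both captures *Lyz2* was high in most cells with 50000 reads (8 and 7 cells) while *Camp* was high in 1 and in none.

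**Figure D5:**
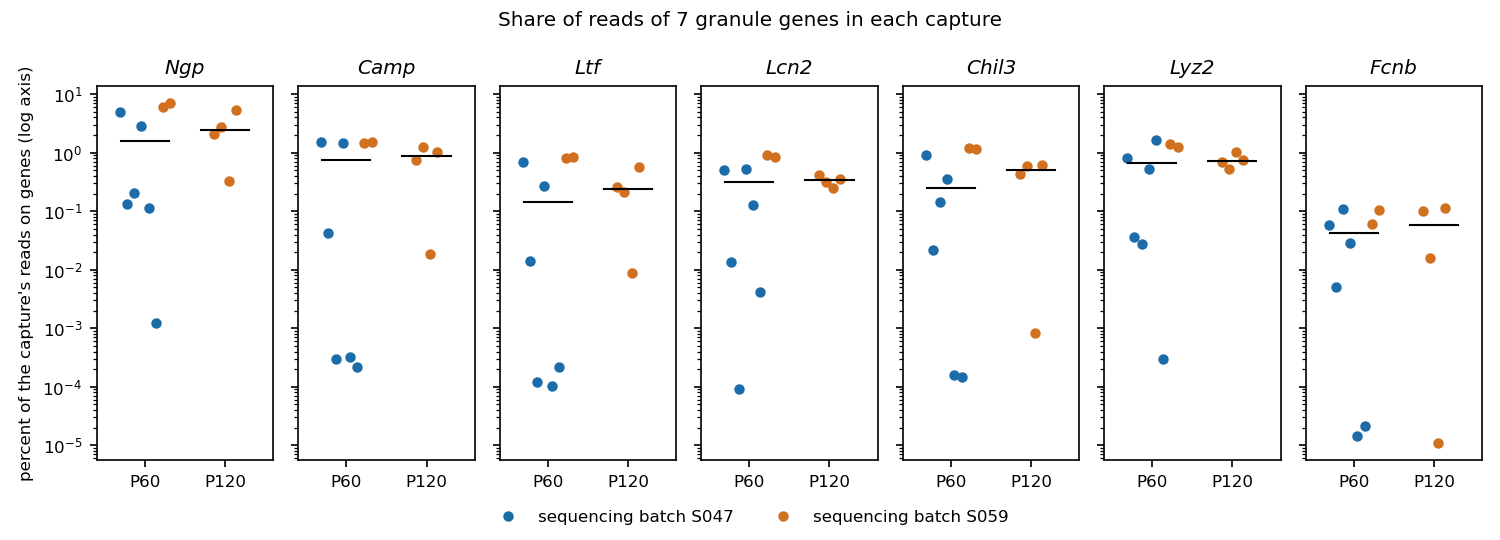
Share of a capture's reads on genes (vertical, percent, log axis) for each member in 8 P60 and 4 P120 captures, with a point per capture colored by sequencing batch and a bar at the median of each age. The P60 and P120 captures overlap for all 7 members, and both P60 captures of batch S059 lie above all 4 P120 captures for 6 of them.

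In edgeR's quasi-likelihood test on capture sums, with Benjamini-Hochberg adjustment over 8346 genes, none of the 7 members passed at 0.05 in either direction (adjusted p = 0.99996 for each). The log2 fold changes of P120 over P60 were -0.03 (SE 1.17) for *Ngp*, -0.22 (1.25) for *Camp*, -0.36 (1.30) for *Ltf*, -0.01 (1.26) for *Lcn2*, -0.34 (1.28) for *Chil3*, 0.45 (1.203) for *Lyz2* and 0.32 (1.42) for *Fcnb*. Each was smaller than its SE. The SEs of edgeR here and below were derived as the absolute log2 fold change over the square root of the test's F value. Over all genes, higher levels at P120 were called for 5 (0.0599%) and higher levels at P60 for another 5 (0.0599%). The median over all genes of the log2 fold change was 0.26. None of the 7 members had an unadjusted p under 0.05, against 443 of the 8346 genes, and DESeq2 also called none. The ranges of the captures did not overlap for 35 genes (0.419%) and overlapped for all 7 members. In simulations with the spread of these captures, none of 100 genes with a 4-fold change was recovered and 8 of 100 with a 16-fold change were, so a 4-fold change was not detectable here.

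Sequencing batch and age were partly tied, since 6 of the 8 P60 captures and no P120 capture came from batch S047. Batch S059 joins 2 runs, over which its captures were unevenly divided. P60 captures 40 and 31 had 18 and 10 cells in the first run and 6 and 13 in the second. P120 capture 28 had 5 and 32 cells in these runs, and P120 capture 36 had 11 and 5. The part of run in the comparison within batch S059 was not tested. In batch S059, which held P60 captures 31 and 40 and all 4 P120 captures, both P60 captures lay above all P120 captures for 6 of the 7 members, all but *Fcnb*. This held for 769 of 11276 genes (6.82%) in that batch, and the smallest two-sided p an exact permutation test can give for 2 against 4 captures is 0.133. The log2 fold changes within the batch were -1.27 (SE 0.72) for *Ngp*, -1.13 (0.91) for *Camp*, -1.67 (1.01) for *Ltf*, -1.23 (0.93) for *Lcn2*, -1.67 (1.01) for *Chil3*, -0.39 (0.87) for *Lyz2* and -0.60 (1.44) for *Fcnb*, and none passed after adjustment in edgeR (adjusted p = 0.836 for *Ngp*, 0.99968 for *Lyz2*). With batch as a covariate all 7 were also below 0 and none passed. A smaller number of positive cells and less RNA in each cannot be told apart in these sums.

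*Ngp* was high in 40 of 80 cells (50%) at P60 and 32 of 84 (38.1%) at P120, with a range over captures of 0 to 77.3% and 18.2 to 51.6%. *Chil3* was high in 38.8% and 20.2%, *Fcnb* in 15% and 8.33%, and *Lyz2* in 61.3% and 54.8% of cells. For each of these the captures of both ages overlapped over both batches. Within batch S059, *Ngp* was high in 55.6% and 77.3% of cells in P60 captures 31 and 40 and in 18.2 to 51.6% in the P120 captures. *Chil3* was high in 44.4% and 63.6% in these P60 captures and in 0 to 29% in the P120 captures. The captures of this batch were also apart for *Lcn2* and *Ltf*. For *Lyz2*, *Fcnb* and *Camp* they overlapped, with *Camp* high in 44.4% in P60 capture 31 and 48.4% in P120 capture 28. The share of all genes set apart in this way was not counted. The level of 1000 CPM was chosen after the values were seen, and the members were high largely in the same cells. Among the other lists, none of the 19 other specific granule genes tested, the 12 primary granule genes, the 18 late neutrophil genes or the 11 transcription factors passed between the ages, with median log2 fold changes of 0.22, -0.27, 0.69 and 0.08. Of 8 basophil and mast cell genes tested, 1, the cytokine gene *Il6*, was called higher at P120 (edgeR adjusted p = 0.00997), but no gene was called with batch as a covariate or after thinning. The median log2 fold change of the 8 genes was 3.68. These genes took between 0.00751% and 4.97% of a capture's reads, and their part in the members' values was not tested.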

How the data were processed

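Single cells were captured on the Fluidigm C1 and gave 1 full-length cDNA library each, without molecular identifiers. The authors aligned reads with STAR to GRCm38 with the vM11 annotation, removed outlier and endothelial cells, and deposited raw read counts per gene (48709 genes, and 92 spike-ins left out here). They also deposited each cell's age, capture and run, its count of uniquely mapped reads, and a GFP score whose scaling by the authors is not stated. Symbols came from GENCODE vM21 of the same build, and 48349 identifiers matched. All sample columns were used, and no doublet caller was run.

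The members and gene lists were chosen with earlier results of these data known. Named genes were the 7 members, *Elane*, *Mpo* and *Il1b*, related copies, the first genes by reads of each list, and the 10 genes with the highest median Spearman rho with the members. The 5 genes with the lowest rho, the level of 1000 CPM and the split by *Ngp* were added after the values were seen, as were some genes named within lists. The class ratio used 1 CPM as prior. Counts were summed per capture and tested with edgeR 4.0.16 (TMM, filterByExpr) in R 4.3.3, with DESeq2 1.42.0 as an alternative. Python 3.11.15, numpy 2.4.6, pandas 2.3.3 and matplotlib 3.10.9 served for the rest. Exact intervals are Clopper-Pearson 95% intervals of counting error only. Thinning drew 50000 reads from each cell that had them. The test and the correlation were tried on simulated data, and with a dispersion of 0.1 edgeR recovered 100 of 100 genes changed 4-fold with 4 false calls. Alternatives were another normalization, no low-count filter, each capture left out, batch, depth and class limits. The sources used here do not tell whether captures came from separate litters, and p-values measure only the spread between captures, which may be technical. Promoters are the 250 bases before the RefSeq start.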

Additional observations from a re-analysis of the deposited data

How the results depend on the processing

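The summed share of reads and the co-expression of the members kept within the spread of the captures, and the count of 0 members called between the ages did not change, under every alternative run for them. The members together held 5.23% to 8.66% of reads, and their median rho ranged from 0.56 to 0.66. That spread is a loose limit, since the summed share of single captures lay between 0.00636% and 12.8%. The count of 0 had little room to change, as a 4-fold change was not detectable in the simulations. Shares of cells for single members rested on the limit. *Ngp* was high in 43.9% of deep cells at 1000 CPM, against 87.7% of cells at 10 reads, and at 1 or more reads *Camp* was found in 98.6% of cells, *Ltf* in 91.5%, *Chil3* in 87.7% and *Fcnb* in 49.3%. The number of members with a mean ratio below 0, higher in cells with *Elane* or *Mpo*, was 4. It was 1 with a class limit of 50 reads and 1 when cells in both classes were left out, over 5 and 4 captures, and was 3 to 4 without 1 capture. With the median of cells in place of summed reads, a choice made after the data were seen, the mean log2 ratio was -2.45 for *Ngp* against -0.12.

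Over all genes, 10 were called between the ages. The count was 42 with DESeq2 size factors, 21 with DESeq2, 22 without the filter, 0 with batch as a covariate, 2 within batch S059, 0 after thinning and 1 to 16 without 1 capture (16 without P60 capture 21c, 1 without P60 capture 10c). The sign of the members' log2 fold changes, none of which passed the test, depended on single captures and on batch. Without 1 capture they ranged from -0.85 to 0.34 for *Ngp*, -0.61 to 0.19 for *Camp*, -1.37 to 0.10 for *Ltf*, -0.28 to 0.39 for *Lcn2*, -0.85 to 0.14 for *Chil3*, -0.37 to 0.81 for *Lyz2* and -0.55 to 0.77 for *Fcnb*, and all 7 were above 0 without P60 capture 31. *Ngp* was 0.023 without the filter, and *Lcn2* was 0.43 with DESeq2 size factors and 0.43 with DESeq2. *Lyz2* was -0.38 with batch as a covariate and -0.39 within batch S059, and *Fcnb* was -0.67 and -0.60. The cause was not tested. No paired analysis was possible because the captures of the ages share no replicate number.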

Other observations

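Further genes that are not members were read in the cells with high *Ngp* as a description. *Anxa1* was at 10684 CPM in the summed reads of the 72 cells with high *Ngp* and 2576 CPM in the other 92, and *S100a9* at 71960 and 25976 CPM. *Csf3r*, which encodes the receptor of granulocyte colony-stimulating factor, was at 498 and 1384 CPM, and *Cxcr2*, a chemokine receptor of mature neutrophils, at 124.4 and 647 CPM. *Olfm4*, another specific granule gene, reached 10 reads in 9 of 211 cells, and *Arg1* had 10 reads over all cells. These sums were not tested, and cells are not replicates.

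The number of genes detected did not follow the number of high members throughout. The median was 2080 genes in the 48 cells with no high member, between 1552 and 1955 genes in the cells with 1 to 4, 2418 genes in the 11 cells with 5, 3544 genes in the 31 cells with 6 and 3819 genes in the 8 cells with 7. *Mki67* or *Top2a* reached 10 reads in 14 of the 48 cells with none, 7 of 35 with 1, 4 of 14 with 2, 4 of 12 with 3, none of 5 with 4, 6 of 11 with 5, 19 of 31 with 6 and 7 of 8 with 7. Median depth was 1022060 reads with none, 666975 with 1, 1810800 with 6 and 2113750 with 7, and its part in these counts was not tested.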
